A study of Mus musculus with 30 samples.

Results

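MMERVK10C-int is the internal part of a mouse endogenous retrovirus, and the deposited table lists 1525 genomic copies of it. They were chosen by repeat name alone, without use of any measured value, from 319797 repeat copies of 1065 names and 382367 transcription units in all. An endogenous retrovirus is the inherited remnant of a retroviral infection. An intact copy has an internal part, which encodes the structural proteins and enzymes of the virus, between long terminal repeats (LTRs), which hold the promoter and the end of the transcript. In mouse embryonic stem cells such elements are held silent by histone H3 lysine 9 methylation, to which KRAB zinc finger proteins, Trim28 and the methyltransferase Setdb1 contribute. Copies differ in age and completeness, so that some keep LTRs at both ends and others are fragments without a promoter of their own.

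The assay was TT-seq, which purifies and sequences the RNA that cells make during a short pulse of 4-thiouridine (4SU). It was run on the mouse embryonic stem cell line dTKO. The labels give all libraries the genotype Suv39h1fl/fl, Suv39h2-/- and Setdb1fl/fl and the compounds auxin (100 µg/ml) and dTAG13 (0.5 µM), which remove proteins that carry degron tags. The labels name neither the tagged proteins nor the number of clones, and each library comes from this 1 line, grown in LIF/FCS medium on gelatin. The 5 groups were collected at 0, 3, 12, 24 and 48 h, with 3 biological repeats each (n = 3 for every mean), 4SU at 1 mM for 10 minutes and 1 µg of yeast RNA added to 110 µg of total RNA. The study asked how transcription of genes and repeats changes as the H3K9 methyltransferases are lost, with 0 h as the baseline.

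Values are scaled reads, the read number of a unit after the scaling between libraries that the submitters applied, with no division by length. Reads over all units ran from 37.1 to 42.3 M per library, and reads in MMERVK10C-int copies from 10396 to 675594. The median log2 change of all tested genes was -0.37 at 48 h, so a second scaling that sets the typical gene to no change (rescaling over genes) was run beside the deposited one. Embryonic stem cell markers were present at all times, with the sum of 10 markers between 18534 and 20564 scaled reads at 0 h and between 12082 and 12757 at 48 h. At 48 h 9 of the 10 were called down and 1, Zfp42, up (limma), also after rescaling, where 58.4% of all tested genes were down and 7.65% up (30.8% and 28.6% after rescaling). Against the same background, of the tested markers of primitive endoderm 0 rose and 2 of 6 fell at 48 h (3 and 2 after rescaling), of trophectoderm 1 rose and 2 of 4 fell (2 and 1), and of fibroblasts 3 rose and 1 of 5 fell (3 and 1). Markers of 2-cell-like cells, a rare state in such cultures, moved in the same hours: 8 of the 12 found in the table passed the minimum mean and rose at 48 h, their sum over the 12 went from between 49.1 and 59.2 to between 1914 and 2261, and none of the 12 was at 0 in every library. The part of such cells in the results on the copies was not tested, and in bulk samples a change in the number of cells and a change in RNA per cell cannot be told apart.

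The copies were between 43 and 7676 bp long, with a median of 911 bp and a summed length of 2351 kb, 722 on the plus and 803 on the minus strand. Most were pieces of a longer element. Joining pieces on 1 strand with gaps of up to 1000 bp gave 684 loci, of which 272 held 1 piece and 412 held 2 to 6. LTRs of the RLTR10 type lay within 200 bp of both ends of 160 loci, of 1 end of 188 loci and of neither end of 336 loci. The LTR named RLTR10C flanked 253 loci, RLTR10B 39, RLTR10B2 34 and RLTR10E 17. Pieces of 1 locus and near-identical copies share sequence, and no source used here says how reads with several positions were assigned, so single copies are less certain than sums.

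Sequences are shown for elements whose letters were at hand, chosen after their values were seen. The first is an LTR that borders a member. Next to a locus on chromosome 5 with LTRs at both ends, RLTR10C_dup521 ends 7 bp before the RefSeq start site of Gm34536, so RefSeq's window of the 250 bases before that start (GRCm38.p6, chr5:26389034-26389283, plus strand) lies almost wholly in it. Capitals mark 3 matches to CCAAT and 1 to TATAAA on the printed strand.
RLTR10C_dup521: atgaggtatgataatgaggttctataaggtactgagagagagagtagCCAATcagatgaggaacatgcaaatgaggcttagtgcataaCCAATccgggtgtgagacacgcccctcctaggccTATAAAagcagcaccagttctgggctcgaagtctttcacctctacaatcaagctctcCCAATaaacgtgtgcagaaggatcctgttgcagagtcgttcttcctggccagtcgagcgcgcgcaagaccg
Of 32851 RefSeq windows of this length, 33.8% held CCAAT or its reverse complement ATTGG, 12.4% held TATAAA or TTTATA, and 1.55% held both CCAAT and TATAAA on the strand of the gene. A match to such letters is a description and not a binding site. This LTR copy gave 0.813, 0 and 0.857 scaled reads at 0 h and 81.2, 90.6 and 78.7 at 48 h.

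The second set shows the starts of 2 internal parts. The first 60 bases of the first piece of 2 loci with LTRs at both ends were read from single-exon GENCODE M21 transcripts of GRCm38 (dup953, chr5:70561758-70561817, and dup52, chr1:39081620-39081679, both on the plus strand). Capitals mark TGGTGCCGAAA, the run that both share after their first 2 bases and the letters complementary to the 3′ end of phenylalanine tRNA, by which retroviruses of this kind are known to prime reverse transcription.
dup953: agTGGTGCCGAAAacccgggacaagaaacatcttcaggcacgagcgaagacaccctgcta
dup52: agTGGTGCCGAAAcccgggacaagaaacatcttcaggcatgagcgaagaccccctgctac
Of 12 copies that lay wholly inside such a transcript, 3 held these letters, each a first piece and each at position 3. These were the 2 printed copies and the first piece of a locus without LTRs, dup429. The letters were taken from the printed copies, so the match of these and its position were fixed in advance. The other 2 first pieces among the 12, dup2680 and dup1022, lacked the letters. Of the 32851 RefSeq windows, 6 (0.0183%) held the letters or their reverse complement TTTCGGCACCA. Neither of the 2 copies shown gave much signal: dup52 was at 0 in all libraries at 0 and 3 h and reached 2.22, 5.42 and 3.82 scaled reads at 48 h, and dup953 exceeded 0 in 2 of 15 libraries.

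Summed over all 1525 copies, signal rose at every later time. The 3 libraries at 0 h gave 8871, 9687 and 8912 scaled reads, and those at 3 h 30714, 21191 and 22542. The 12 h sums were 124153, 156865 and 125704. They reached 293185, 352558 and 253878 by 24 h and 474511, 523370 and 486152 by 48 h. No library of a later time overlapped those of the time before, and 3 h replicate 1 stood above the other two. The log2 changes of the sum were 1.42, 3.88, 5.02 and 5.76 at the 4 later times (SE 0.12 each), and 1.26 at 3 h without 3 h replicate 1. As a share of all signal in repeat copies, the MMERVK10C-int copies went from 1.26% ± 0.018 (SD) at 0 h through 3.93% ± 0.692, 13.2% ± 0.525 and 24.1% ± 1.06 to 32.3% ± 0.492 at 48 h. This share uses no size factor.

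**Figure D1:**
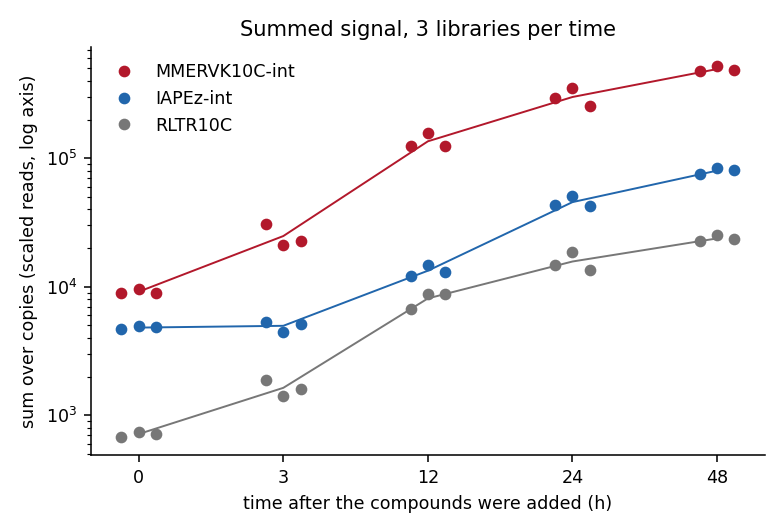
Summed signal in scaled reads (log axis) against time in hours for MMERVK10C-int, IAPEz-int and the LTR RLTR10C; points are single libraries and lines join the means of 3. MMERVK10C-int lies above its 0 h libraries at every later time, while the IAPEz-int libraries at 3 h overlap those at 0 h.

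The summed copies rose more than IAPEz-int, the internal part of the intracisternal A particle retroviruses. The log2 ratio of the 2 sums was 0.93, 0.97 and 0.88 in the 0 h libraries and between 2.13 and 3.40 in the 12 later ones, with no overlap. The mean difference of 1.82 gave p = 0.0044 in a two-sided exact permutation test over libraries, the smallest that 3 against 12 allows. By time the ratio was higher than at 0 h by 1.38, 2.41, 1.78 and 1.70 at the 4 later times in order, and each of these comparisons of 3 against 3 gave the smallest exact permutation p they allow, 0.1, which cannot pass the 0.05 threshold. The ratio was highest at 12 h, with 3.34, 3.40 and 3.28 in its libraries against 2.66, 2.63 and 2.59 at 48 h.

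Of the 1525 copies, 1524 had a read in some library. A mean of at least 10 scaled reads over the 15 libraries, needed for the test, was reached by 610, which held 99.04% of the 48 h signal. The other 915 were not tested, and since a copy that was silent at 0 h could pass this minimum only by rising, counts among the 610 do not describe the whole set. At 3 h 206 of them were called up and 0 down (limma, adjusted p under 0.05), where 2.5% of all 13519 tested repeat copies were called up and 0.266% down. The 3 h count was 79 when only the 6 libraries compared were fitted and 89 when the minimum was asked of the 0 h libraries. At 12 h 519 were up against 20.8% of all tested copies, at 24 h 583 against 25.4%, and at 48 h 587 against 26%. Calls down were 0, 0 and 1 at these times, against 1.83%, 6.25% and 12.3%. The shares up were above the background at each time, with median log2 changes of 1.27, 3.90, 5.20 and 6.03 where all tested copies had -0.18, 0.32, 0.09 and -0.07. In the authors' deposited table, which covers all 1525 copies, 261, 578, 719 and 794 were called up (background 0.131%, 0.948%, 1.81% and 2.48% of all repeat copies) and 5, 0, 1 and 2 down (background 0.00813%, 0.0159%, 0.103% and 0.33%).

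The rise was spread over successive intervals. From 3 to 12 h 488 tested copies were called up and 0 down (limma; background 26.7% up and 0.296% down) with a median log2 change of 2.58. From 12 to 24 h it was 212 (background 9.9% up and 2% down) with a median of 1.38, a count that fell to 139, 130 and 114 when 12 h replicate 1, 24 h replicate 1 or 24 h replicate 2 was left out. From 24 to 48 h it was 9 (background 0.533% up and 0.126% down) with a median of 0.77. This last count became 0 without any 1 of 24 h replicates 1 and 3 or the 3 libraries at 48 h. Leaving out 0 h replicate 3 gave 14, and leaving out 3 h replicate 1 or 2 gave 24 or 15. The summed signal still rose in that interval, by 0.73 on the log2 scale (SE 0.12, limma adjusted p = 8.12e-08 over repeat names). Of the 48 h total, 1.85%, 5.02%, 27.4% and 60.6% was present at the 4 earlier times. Of the 610, 569 had their highest mean at 48 h, 22 at the time before it, 18 at 12 h and 1 at 3 h.

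Copies called up at 3 h had more signal at 0 h than those first called at 12 h. The median of the first was 7.03 scaled reads at 0 h and 833 at 48 h, and these 206 copies held 65.0% of the 0 h and 78.9% of the 48 h signal. The 313 copies first called up at 12 h had a median of 0.832 at 0 h and 121 at 48 h, and 66 and 5 more followed at 24 and 48 h. LTRs at both ends of the locus were found for 73.3% of the copies called at 3 h and 51.8% of those first called at 12 h. Which copies are called at 3 h depends on the fit, as the counts of 79 and 89 show. A copy with more reads is easier to call, so the time of the first call partly follows the level, and no test of the order was made. The 20 tested copies that were never called up included 10 whose 0 h mean was 10 or more, 8 at loci without LTRs and 6 of a length class that had reads in 1 library only, described further on.

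Levels at 0 h were uneven. No reads at all were found at 0 h in 801 copies, 296 had a mean under 1, 284 had 1 to under 10 and 144 at least 10. Those 144 copies held 87.4% of the signal at 0 h and 70.3% at 48 h. Of the 142 of them that were tested, 92, 128, 129 and 129 were called up at the 4 later times, and for this class the minimum mean plays little part. Their sum rose 43.4-fold by 48 h, that of the copies with 1 to under 10 rose 105-fold and that of the copies under 1 rose 153-fold. The classes were drawn with the 0 h libraries that are also the baseline of these folds, so folds are not comparable between classes. Signal spread over more copies with time: the 10 highest copies held 38.7% at 0 h and 26.9% at 48 h, and 22 copies held 50% at 0 h where 36 did at 48 h. The number of copies whose mean reached 10 went from 144 through 272, 539 and 676 to 776, and the number reaching 1000 from 0 through 3, 23 and 70 to 111.

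**Figure D2:**
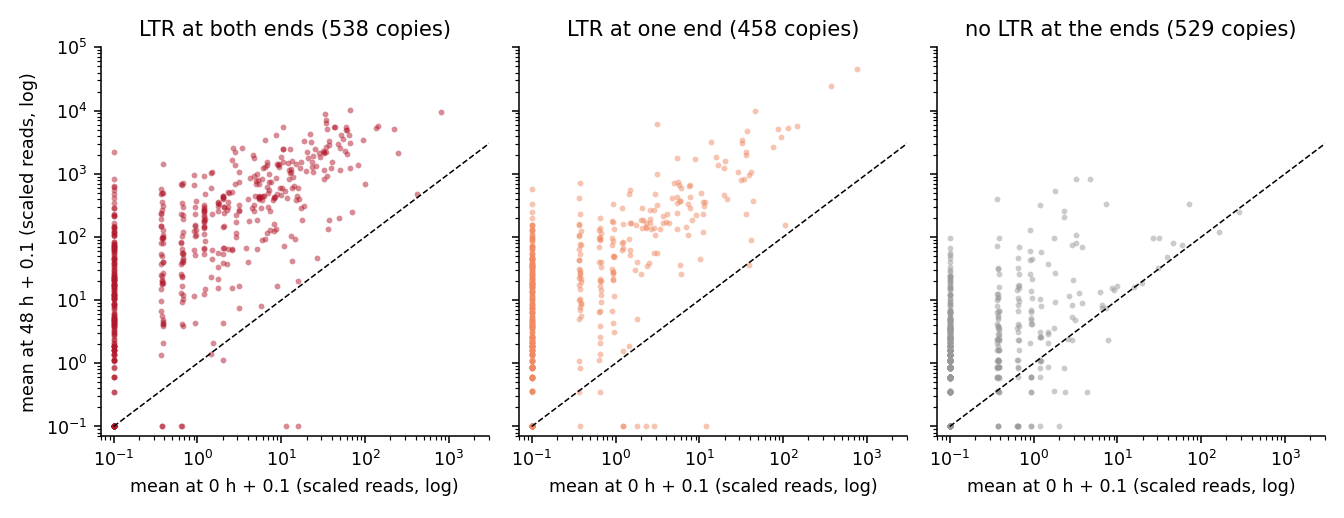
Mean scaled reads of each copy at 48 h against 0 h (both axes log, 0.1 added; means of 3 libraries), in panels by the LTRs at the ends of the copy's locus; the dashed line marks equal levels. Most points with reads lie above the line where LTRs are present, and copies of loci without LTRs stay below 1000 scaled reads at 48 h.

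Copies of every length class were among those called up. Of 636 copies under 500 bp, 229 were tested and 78, 186, 212 and 214 were called up at the 4 times, where 2.5%, 20.8%, 25.4% and 26% of all tested repeat copies were. Of 491 copies of 500 to under 2000 bp, 157 were tested and 30, 133, 152 and 153 called up. Of 171 copies of 2000 to under 4000 bp it was 24, 60, 68 and 69 of 71 tested. Of 227 copies of at least 4000 bp it was 74, 140, 151 and 151 of 153 tested. Nearly all tested copies of each length class were up at 48 h. A copy silent at 0 h was tested only if it rose, so these counts do not describe the whole classes. Over all copies, tested or not, summed signal at 48 h was 45.7, 23.4, 96.7 and 60.2 times that at 0 h in these classes. The copies of at least 4000 bp held 53.7%, 53.5% and 52.9% of the signal in the 0 h libraries. In the later libraries they held between 56.7% and 60.7%, without overlap with 0 h. The difference of 5.79 percentage points (53.3% ± 0.43 against 59.1% ± 1.45, SD, n = 3 and 12) gave p = 0.0044 in a two-sided exact permutation test over libraries, again the smallest possible. Flat copies of 500 to under 2000 bp, described further on, enter this difference and the 23.4-fold rise of their class. Of the 1490 scaled reads of that class at 0 h, dup2997 held 411 and dup2283 163. At 48 h they held 477 and 122 of 34823. The share of that class in all MMERVK10C-int signal went from 16.3% at 0 h to 7.04% at 48 h. The permutation test was of the share of long copies with these flat copies included. It cannot tell a gain of the long copies from the weight of the flat ones at 0 h. The share without them was not computed.

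The presence of LTRs went with the level. The 160 loci with LTRs at both ends had a median of 1.84 scaled reads per kb at 0 h, then 5.87, 42.9, 130 and 226 at 3, 12, 24 and 48 h. The 188 loci with 1 LTR end had 0.213, 0.962, 6.90, 16.9 and 31.6, and the 336 loci without had 0, 0.088, 0.442, 0.963 and 1.50. Loci with both LTRs were also longer, with a median of 6139.5 bp against 3014 and 2050 bp. Their share of the signal went from 58.4% at 0 h to 63.6% at 48 h, that of loci with 1 LTR end from 30.7% to 34.8%, and that of loci without fell from 10.9% to 1.63%. Summed signal was 58.9 times higher at 48 h in the first class, 61.1 times in the second and 8.09 times in the third. In the third class 1 flat locus on chromosome 11, that of dup2283, held 464 of the 998 scaled reads at 0 h. Without it the class was 14.4 times higher at 48 h, and its share went from 5.83% to 1.55%. These are levels and ratios of sums over loci of this series, and no test of the classes against each other was made.

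When the pieces of a locus were joined before the fit, 324 of 684 loci could be tested. At the 4 times 151, 300, 312 and 313 were called up and 0 down at each (limma; background 2.09%, 19.5%, 23.9% and 24.5% up and 0.264%, 1.87%, 6.33% and 12.5% down). Of the loci with both LTRs 154 of 160 were tested, and 98, 151, 151 and 151 of them rose. Of those with 1 LTR end 126 of 188 were tested, and 47, 116, 124 and 124 rose. Of those without LTRs only 44 of 336 passed the minimum, and 6, 33, 37 and 38 rose.

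**Figure D3:**
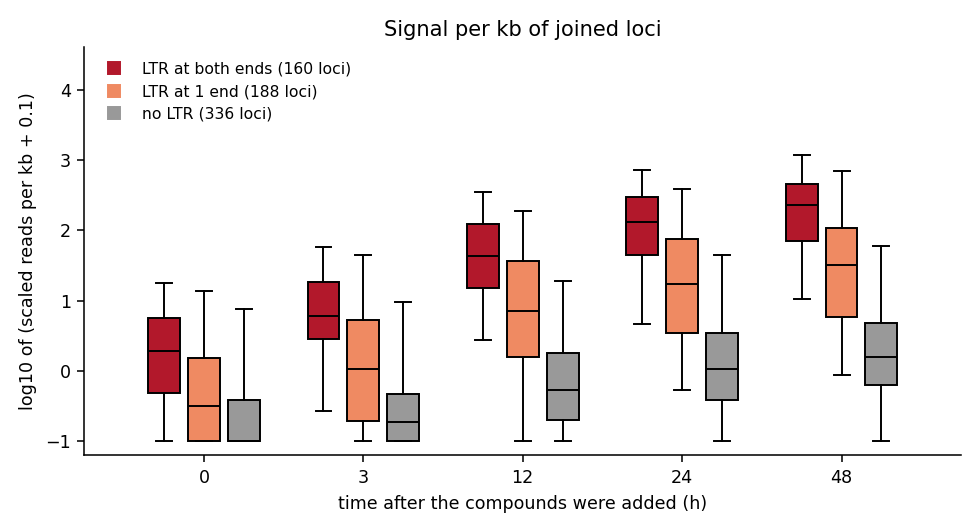
Signal of joined loci as log10 of scaled reads per kb plus 0.1 (means of 3 libraries) at each time, by LTRs at the ends; boxes span the quartiles with the median as a line, whiskers the 5th to 95th percentile. Loci with LTRs at both ends have the highest median at every time, 226 per kb at 48 h against 31.6 and 1.50.

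The LTRs themselves moved with the internal copies. Of 508 RLTR10-type LTR copies at the ends of these loci, 157 were tested, and 31, 131, 151 and 152 rose at 3, 12, 24 and 48 h (limma, class of all repeat copies, background as above). Their summed signal went from 623 ± 45.0 (SD) to 20183 ± 887 scaled reads. Of 1854 LTR copies of the same type elsewhere in the genome 65 were tested, 10, 46, 49 and 49 rose and 2 fell at 48 h, with sums of 1349 ± 41.6 and 8151 ± 703. Among the tested LTR copies the median log2 change at 48 h was 5.53 at the ends of the loci and 3.53 elsewhere. This difference was not tested. An LTR copy silent at 0 h passed the minimum only by rising, so these counts and medians do not describe all LTR copies. Within the 60 loci of 4 pieces that had both LTRs, typically of 343, 272, 493 and 5018 bp in 5′ to 3′ order, the median level at 48 h was 148, 587, 53.0 and 190 scaled reads per kb. By these medians the short second piece was highest and the third lowest. The third pieces include dup57, a 206-bp copy without reads at 48 h, of a length class described further on. Their median was 34.5 at 12 h and 28.1 at 24 h, and it was not computed without such copies. Pooled over all loci, copies of 492 bp gave 790 scaled reads per kb at 48 h and those of 343 bp 818. In the 66 loci of 3 pieces (373.5, 4942.5 and 936 bp) the median level at 48 h was 77.3, 121 and 47.9.

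Of all loci, 1 stood far above the rest. On the plus strand of chromosome 8 (mm10, chr8:47466065-47478980) lie 6 pieces of 343, 492, 5084, 343, 492 and 5084 bp, 11838 bp in all and the longest joined locus, with an LTR at 1 end. The order of lengths is thus repeated. The locus lies beside Trappc11, which encodes a subunit of a vesicle tethering complex. The locus gave 1353, 1358 and 1258 scaled reads at 0 h and 4884, 3434 and 3516 at 3 h. By 12 h it reached 18815, 27065 and 20872, by 24 h 46240, 56445 and 40717, and by 48 h 76439, 83869 and 81745. It held 14.5% of all MMERVK10C-int signal at 0 h and 16.3% at 48 h, so it rose about as the whole did. Because of it chromosome 8, with 80 of the copies, held 22.7% of the 48 h signal, and without it 6.44%. On the X chromosome 61 copies held 0.361% and on Y 14 copies 0.063%. The shares of other chromosomes moved in both directions over time. Chromosome 3 went from 15.9% of the signal at 0 h to 3.83% at 48 h and chromosome 11 from 8.14% to 1.83%. Chromosome 5 went from 5.40% to 8.95%. Single loci made up much of the falls. On chromosome 3 the locus of dup532 held 10.9% at 0 h and 2.13% at 48 h. On chromosome 11 that of dup2283 held 5.07% and 0.0792%.

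The highest single copy at 48 h was dup1577, the sixth piece of that locus (chr8:47473896-47478980, 5084 bp; copy positions are as the table lists them, in mm10, with starts counted from 0). It gave 708, 730 and 814 scaled reads at 0 h and 2942, 2049 and 1973 at 3 h. It reached 11589, 14406 and 10995 by 12 h, 25239, 29458 and 23046 by 24 h, and 42540, 45627 and 45841 by 48 h. No time overlapped the one before, and the log2 change at 48 h was 5.90 (SE 0.18, limma adjusted p = 4.51e-12). The other 5084-bp piece of the locus, dup1571, was next and rose by 6.09 (SE 0.21), from 422, 398 and 280 to 22952, 26218 and 24872.

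Different courses were seen in the next highest copies. On the minus strand of chromosome 3, dup532 (chr3:96508640-96513739) was the highest copy of all at 0 h with 809, 859 and 770 scaled reads. By 12 h it stood at 5951, 7615 and 6464, then at 8061, 9857 and 7205 by 24 h and at 8793, 10003 and 9683 by 48 h. Most of its rise thus fell before 12 h: the log2 change was 3.03 at 12 h and 3.54 at 48 h (SE 0.15), and neither the interval from 12 to 24 h (0.32, limma adjusted p = 0.196) nor that from 24 to 48 h (0.19, limma adjusted p = 0.584) passed. Its locus held 10.9% of the signal at 0 h and 2.13% at 48 h. By contrast dup1642 (chr9:107214430-107217307), inside Dock3 on the opposite strand, started at 40.6, 19.1 and 77.2 and reached 9721, 10702 and 9190, a log2 change of 7.93 (SE 0.40). Likewise dup1634 (chr8:104460513-104463024), inside CCDC79 on the opposite strand, went from 63.4, 69.0 and 65.2 to 9815, 11218 and 9295, a change of 7.24 (SE 0.21).

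The largest changes belonged to copies that were nearly silent at 0 h. On chromosome 5 dup919 (chr5:15000001-15004545, minus strand) gave 7.32, 1.66 and 0 scaled reads at 0 h and 141, 44.5 and 40.3 at 3 h. It reached 804, 999 and 703 by 12 h, 3005, 3678 and 2878 by 24 h, and 6093, 6621 and 5879 by 48 h. The log2 change was 11.11 with an SE of 0.57. No reads were seen at 0 h for dup1524 (chr8:4682432-4687356), which gave 83.1, 9.54 and 12.4 at 3 h and 2125, 2288 and 2157 at 48 h. Set against 3 reads for the 0 h group as a whole, it was at least 2626-fold higher. The same holds for the 380-bp copy dup1551 (chr8:30158266-30158646), with 0 in all 3 libraries at 0 h and 865, 932 and 685 at 48 h, at least 992-fold higher.

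Also among the 5 largest rises were dup3165 (chr19:8244056-8248998), from 0, 0 and 7.72 to 2456, 2715 and 2431, and dup1609 (chr8:81190438-81195383), from 0, 0 and 0.857 to 1323, 1418 and 1613. Of these 5, 4 had already passed at 3 h and dup3165 had not (2.71, limma adjusted p = 0.0682). At 3 h the largest rises were those of dup919 (4.52, SE 0.57) and dup1524 (4.51, SE 0.53), then dup1487 (4.42), dup2476 (4.22) and dup1249 (4.20). These early values were uneven. In dup1524 the 3 h replicate 1 library stood far above the other two, while in dup1249 (chr6:147461228-147463515) 53.3, 61.7 and 34.9 scaled reads stood against 0, 0 and 18.9 at 0 h.

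A few copies stayed flat. On chromosome 17 dup2997 (chr17:28893457-28894993), next in level at 0 h after dup532 and dup1577, gave 375, 444 and 415 scaled reads there and 475, 462 and 493 at 48 h. It was called up at 12 h (0.56, limma adjusted p = 0.00643) and 24 h (0.48, limma adjusted p = 0.0113) but not at 48 h (0.22, limma adjusted p = 0.238), where rescaling over genes gave 0.56 with a call. The only call down was that of dup2283 (chr11:98068321-98070141), at a locus without LTRs, with 165, 182 and 142 at 0 h and 110, 124 and 131 at 48 h. Its log2 change of -0.42 (SE 0.14, limma adjusted p = 0.033) lost its call after rescaling (-0.07), without a minimum mean, without the variance trend and in edgeR on recovered reads, and without 0 h replicate 1 (-0.41) or 2 (-0.34) or 48 h replicate 1 (-0.35) or 2 (-0.43). The 3 longest copies, dup1470, dup1253 and dup111, single pieces of 7676, 7669 and 7633 bp, were not tested. Their highest values in any library were 1.53, 17.0 and 24.4 scaled reads, so length alone did not go with high signal.

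**Figure D4:**
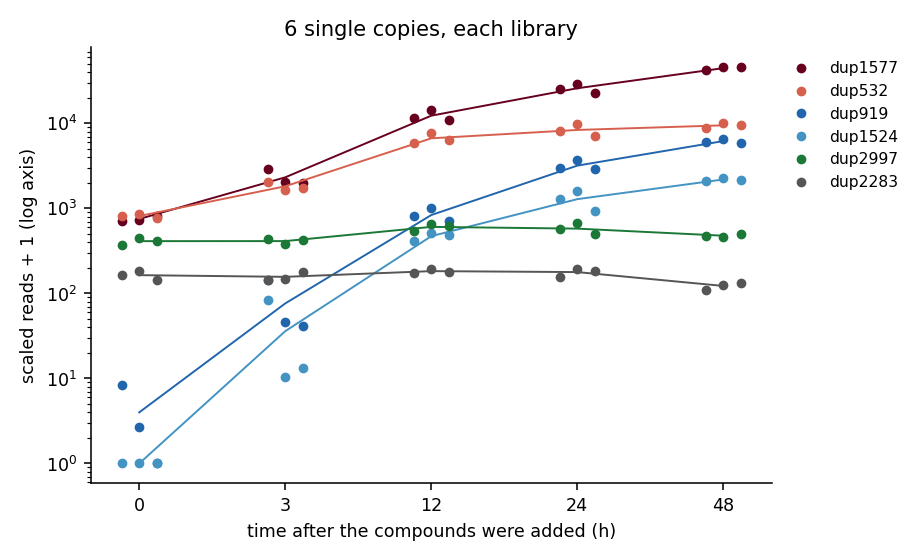
Scaled reads plus 1 (log axis) of 6 single copies in each library against time in hours; points are libraries and lines join the means. The copy dup532 levels off after 12 h, dup919 and dup1524 climb from at or near 0, and dup2997 and dup2283 stay within a narrow band.

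Some short copies had reads in single libraries only. All 20 copies of 206 or 207 bp had reads in 12 h replicate 1, 5836 scaled reads in all, and none in the other 14 libraries. The 8 copies of 208 or 209 bp gave 74.4 in 12 h replicate 1, 134 in 12 h replicate 2, 2.95 in 48 h replicate 1 and 0 elsewhere. By contrast the 45 copies of up to 205 bp gave between 85.7 and 259 in every library, and the 36 copies of 225 to 249 bp had reads throughout. Lengths between were patchy too: the 6 copies of 210 to 214 bp were at 0 in 0 h replicate 3, 3 h replicate 3, 24 h replicates 2 and 3 and 48 h replicates 1 and 2, but gave 711 in 24 h replicate 1 and 303 in 48 h replicate 3. The 16 copies of 220 to 224 bp were at 0 in 3 h replicate 3 alone. In 12 h replicate 1 the 27 copies of 492 bp gave only 478 scaled reads, where 12 h replicates 2 and 3 gave 3966 and 2670. These values went with length and library and not with time, and their cause was not tested.

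The letters show how these lengths are related. The last 206 bases of the 493-bp copy dup956 (GRCm38, chr5:70562698-70562903, plus strand) are set beside the 206-bp copies dup57 (chr1:39082579-39082784, plus strand) and dup1020 (chr5:117300950-117301155, minus strand), all from GENCODE M21 transcripts. Capitals mark bases that differ from dup956.
dup956: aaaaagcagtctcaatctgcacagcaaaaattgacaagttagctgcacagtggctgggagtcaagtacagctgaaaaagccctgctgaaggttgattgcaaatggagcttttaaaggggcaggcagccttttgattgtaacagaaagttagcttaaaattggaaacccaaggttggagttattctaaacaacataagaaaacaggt
dup57: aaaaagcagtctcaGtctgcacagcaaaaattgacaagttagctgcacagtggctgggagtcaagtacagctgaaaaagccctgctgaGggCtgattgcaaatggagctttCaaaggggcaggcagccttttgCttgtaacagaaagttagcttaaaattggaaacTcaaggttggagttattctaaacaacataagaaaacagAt
dup1020: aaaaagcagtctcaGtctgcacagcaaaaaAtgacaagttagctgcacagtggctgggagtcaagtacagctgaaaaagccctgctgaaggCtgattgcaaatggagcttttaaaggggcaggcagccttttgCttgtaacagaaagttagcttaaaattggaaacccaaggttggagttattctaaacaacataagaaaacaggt
The copy dup57 differs at 7 of 206 bases (96.6% identical) and dup1020 at 4 (98.1%). In 12 h replicate 1 dup57 gave 74.4 and dup1020 603 scaled reads, and both were at 0 in the other 14 libraries. Their neighbours in the same loci rose steadily: dup59, next to dup57, went from 7.32, 11.6 and 11.1 at 0 h to 547, 667 and 547 at 48 h, and dup1022, next to dup1020, from 35.0, 28.3 and 30.9 to 864, 848 and 686. All 6 tested copies of 206 or 207 bp had their highest mean at 12 h and none was called up. Without 12 h replicate 1 the counts of copies called up were 218, 550, 592 and 595 at the 4 times (206, 519, 583 and 587 with it), and the 12 h change of the sum was 3.94 (3.88 with it).

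**Figure D5:**
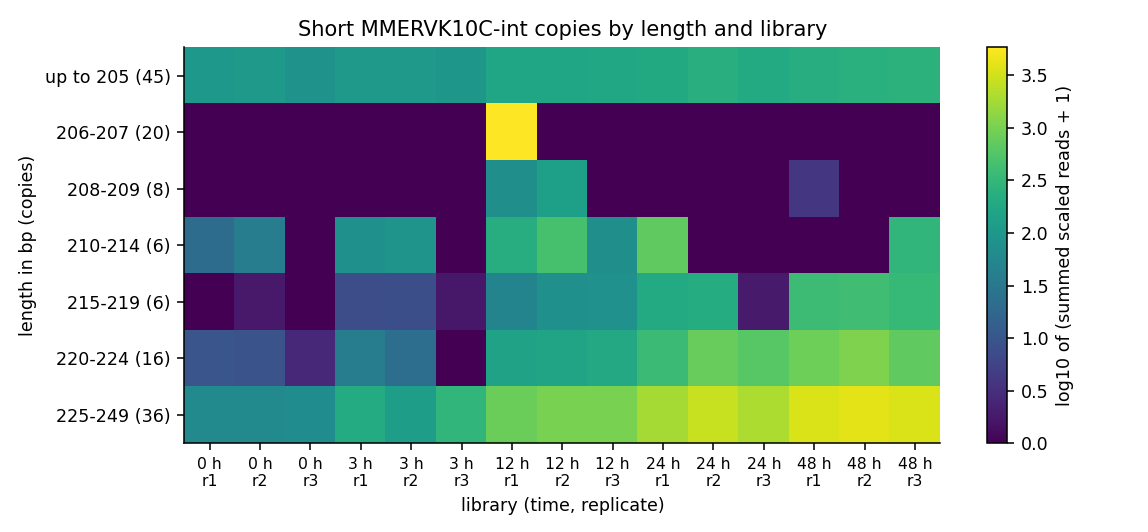
Colour gives log10 of summed scaled reads plus 1 for short copies, by length class in bp with the number of copies (rows) and by library (columns). The 206 to 207 bp row is at 0 except in 12 h replicate 1, and the row of copies up to 205 bp has reads in every library.

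Non-coding units of the table overlap many copies on the same strand and give a second reading of these places. Of 249 units that copies cover to at least 50%, 162 were tested and 107, 156, 158 and 158 were called up at the 4 times (limma; background 7.74%, 29.4%, 30.4% and 29.3% up), with 0, 0, 1 and 1 down (background 8.06%, 11.1%, 24.8% and 39.4%). Median log2 changes of the tested units were 1.20, 3.50, 4.70 and 5.48. Their summed signal moved far less, from 23548 ± 1293 (SD) scaled reads at 0 h to 0.908, 1.53, 2.51 and 3.34 times that at the 4 later times, where the copies' sum at 48 h was 54.0 times that at 0 h. Among 402 units that wholly contain copies, the copies inside summed to 0.158 of the units' signal at 0 h and 1.14 at 48 h. At 48 h 148 of 388 such units with a mean of at least 10 held less signal than the copies inside them, and how reads were divided between copies and units was not tested.

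Genes near the copies were examined next, fitted among all 15261 tested genes. Within 10 kb of a copy lay 180 genes, of which 139 were tested. Of these 4 were up and 12 down at 3 h (limma; background 0.636% up and 13.5% down), 36 up and 3 down at 12 h (background 12.9% and 2.07%), 22 up and 10 down at 24 h (background 7.21% and 12.2%), and 25 up and 52 down at 48 h (background 7.65% and 58.4%). Rescaling over genes changed this split to 65 up and 15 down at 48 h, with 28.6% of all genes up and 30.8% down. At 48 h, under both scalings, the share up was above that of all genes and the share down below it. By the deposited scaling the share up at 48 h was 70.0% of 10 tested genes that overlap a copy on the same strand, whose reads may be shared with it, and 16.7% of 42 that overlap one on the opposite strand. It was 12.6% of 87 genes up to 10 kb away, 16.2% of 277 at 10 to 50 kb, 12.0% of 299 at 50 to 100 kb and 7.27% of 14538 beyond 100 kb. Within 10 kb it was 16.9% of 59 genes whose nearest copy was called up at 48 h. It was 18.8% of 80 genes whose nearest copy was not, a group that includes untested copies. At 3, 12 and 24 h the order was the other way, with 6.78%, 39.0% and 18.6% up against 0%, 16.25% and 13.75%. These groups were not tested against each other. No test of the difference between distances was made, and the classes share neighbourhoods and gene families.

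Genes overlapping a copy on their own strand, whose reads may belong to either, had 10 tested members. Of these, 3, 6, 7 and 7 were up at the 4 times and 2 down at 48 h. KLRA15 and KLRA22, listed with identical values, enter these counts, the 70.0% above and the counts within 10 kb as 2 genes. Both were among those up at 12, 24 and 48 h. The largest change was that of 2010005H15Rik on chromosome 16, which contains dup2922. It gave 13.0, 17.5 and 15.4 scaled reads at 0 h and 206, 98.6 and 111 at 3 h. It reached 1636, 2201 and 1845 by 12 h, 3478, 4696 and 3308 by 24 h, and 3705, 4145 and 3939 by 48 h. The log2 change was 7.87 at 24 h and 7.92 at 48 h, each with an SE of 0.13.

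The lectin gene Cd209c starts inside a copy. Its RefSeq start (chromosome 8, 3946863, minus strand) falls 534 bp inside the 3′ end of dup1517 (chr8:3946329-3951359), and the 250 bases before the start (GRCm38.p6, chr8:3946864-3947113), shown because they are internal retroviral sequence in the place of a promoter, hold 1 CCAAT in capitals and no TATAAA on this strand.
Cd209c: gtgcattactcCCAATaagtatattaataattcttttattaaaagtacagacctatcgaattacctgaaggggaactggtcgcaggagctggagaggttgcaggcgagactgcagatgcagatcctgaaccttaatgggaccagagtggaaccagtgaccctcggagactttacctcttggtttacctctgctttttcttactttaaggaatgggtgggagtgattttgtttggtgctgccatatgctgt
Cd209c gave 3.25, 3.33 and 1.72 scaled reads at 0 h and 10.8, 7.64 and 10.1 at 3 h. It reached 63.4, 106 and 91.3 by 12 h, 329, 396 and 303 by 24 h, and 737, 806 and 776 by 48 h. The log2 change was 7.71 with an SE of 0.17. The copy dup1517 itself went from 43.1, 47.4 and 3.43 at 0 h to 1741, 2571 and 2635 at 48 h, a change of 6.75 (SE 0.72, limma adjusted p = 1.64e-06).

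Other neighbours rose less. Slc22a13, an organic anion transporter gene 1828 bp from dup1750 on the same strand, rose by 6.23 (SE 0.18), from 5.69, 5.82 and 3.43 to 401, 453 and 466. The olfactory receptor pseudogene Olfr1372-ps1, which overlaps dup2275 on its strand, rose by 4.59 (SE 0.20). Gm1527 rose by 3.91 (1.57 at 24 h), Speer4cos by 3.77 (2.21 at 24 h) and Gm4858 by 3.50 (0.76 at 24 h, without a call). Cldn34c1, a claudin family gene overlapped on the opposite strand, rose by 2.62 (SE 0.14). KLRA15 and KLRA22, natural killer receptor genes with overlapping positions, were listed with identical values and rose by 3.13, so they count as 1 signal. The largest falls were those of the adhesion receptor gene Adgrf5 (-2.61, SE 0.27; 41.5, 36.6 and 33.4 to 4.43, 4.65 and 6.88), Ticam2 (-1.51), Rgs6 (-1.28), Manba (-1.03) and Megf11 (-0.88), all of which kept a call after rescaling.

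The genes nearest to the named copies went in both directions. SPEER8-PS1, nearest to dup919 and 20135 bp from dup917 of the same locus, rose by 3.85 (SE 0.39, limma adjusted p = 9.53e-22). Trappc11, 11148 bp from dup1577, changed by -0.33 at 48 h (SE 0.13, limma adjusted p = 0.0161), which turned to 0.02 after rescaling and lost its call without 0 h replicate 2 or 48 h replicate 1. Dock3, which holds dup1642 on the other strand, was at -0.22 (limma adjusted p = 0.108) and CCDC79, which holds dup1634, at -0.22 (limma adjusted p = 0.205). After rescaling both turned to 0.13, with a call up for Dock3 (limma adjusted p = 0.00176) and none for CCDC79 (limma adjusted p = 0.405). Shcbp1 fell by 0.47 (limma adjusted p = 0.000456) and by 0.12 after rescaling, 48246 bp from dup1525, a piece of the locus of dup1524. Ccdc91, near dup1249, rose by 0.35 (limma adjusted p = 0.0105). The phosphatase gene Inpp4b rose by 3.22 (SE 0.15) with the nearest piece, dup1610 of the locus of dup1609, 146257 bp away. The transcript 4930539E08Rik, 1165 bp from dup2999 of the locus of dup2997, fell by 0.78 (limma adjusted p = 6.19e-07).

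The genes that act in silencing such elements were followed as a list of 35, all of them tested. At 3, 12, 24 and 48 h 0, 6, 2 and 2 were up and 7, 0, 3 and 25 down (limma; background as for genes above), and after rescaling 10 were up and 11 down at 48 h. Transcription of Resf1, a partner of Setdb1 at retroelements listed under its RIKEN name, rose: it gave 3808, 4362 and 3784 scaled reads at 0 h and 8042, 8405 and 8237 at 48 h. Its log2 change was 1.05 with an SE of 0.12. Zfp42, a pluripotency marker that is also in the list, rose by 0.86. Lower at 48 h were the zinc finger gene Zfp819 (-1.10), the methyltransferase gene Ehmt2 (-0.71), the corepressor gene Trim28 (-0.66) and the heterochromatin protein gene Cbx1 (-0.64), and all 6 kept direction and call after rescaling. Given because the genotype label names them, Setdb1 (-0.21) and Suv39h1 (-0.08) did not pass and turned to 0.14 and 0.26 with calls after rescaling, and Suv39h2 (-0.44, limma adjusted p = 0.00112) was at -0.09 without a call. Suv39h2, which the label gives as -/-, still had 1044, 1175 and 1055 scaled reads at 0 h and 750, 882 and 779 at 48 h. The labels do not say which part of the gene is deleted and no library here is wild type for it, so reads over the whole gene do not show the knockout.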

How the data were processed

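The deposited table holds signal values made by the authors: scaled reads per transcription unit, with the runs of each library combined. STAR 2.5.2a, DESeq2 and deepTools and the builds mm10 and GRCm38 are named per the submitters' processing notes; the read counter, its strand setting and the treatment of multi-position reads are named in no source used here. In each library 99.9972% to 99.9995% of values were whole multiples of 1 step (tolerance 0.05), from which reads were recovered for the count test by edgeR 4.0.16 used as an alternative. Whether repeats were separate cultures is not stated, so p-values measure the spread between these libraries.

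Values were fitted with limma 3.58.1 (R 4.3.3) as log2(value + 1) over the 15 libraries of 30 samples, separately for repeat copies, genes, non-coding units and repeat names, for units with a mean of at least 10, with a trend in the variance. P-values were two-sided and adjusted by Benjamini-Hochberg, with calls at 0.05. Fold changes on this scale understate the change of low copies. The fit was tested on simulated data. Named copies were the highest at 48 h and at 0 h, those with the largest rises at 48 and 3 h, the calls down and the longest. Named genes were the nearest to these copies and those within 10 kb with the largest called changes and no overlap between the 0 and 48 h libraries, and of the silencing list the 6 with the smallest adjusted p. The copies were taken by repeat name, but the choice of this repeat, and of the gene lists, was made with earlier results of these data known. Gene symbols matched GENCODE M21 for 19830 of 20541 genes.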

Additional observations from a re-analysis of the deposited data

How the results depend on the processing

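Counts of copies called up against 0 h followed the minimum: at 3, 12, 24 and 48 h they were 89, 124, 128 and 129 with the minimum mean of 10 asked of the 0 h libraries, and 899 at 48 h without a minimum. Fitting only the 6 libraries compared gave 79 at 3 h. Joined loci, an alternative chosen after seeing the data, gave 300, 312 and 313 at 12, 24 and 48 h. The minimum at 0 h gave 124 from 3 to 12 h, 51 from 12 to 24 h and 2 from 24 to 48 h. From 12 to 24 h the count was 322 after rescaling over genes, 139 with a pseudocount of 0.5, 375 with 4, and 114 to 261 leaving out 1 library. From 24 to 48 h it was 82, 0 and 94 under the same settings, 70 without a minimum, and 0 to 24 leaving out 1 library. With the replicate number as a block (replicate block) it was 1, and no other count of calls moved by over 1.5 times. Same-numbered libraries had correlations of deviations between -0.061 and 0.154, so the numbers were not taken to pair them. Of 139 tested neighbouring genes 65 were up and 15 down at 48 h after rescaling (background 28.6% and 30.8%). Genes up were 38 without a minimum and 16 with the minimum at 0 h, settings that change how many genes are tested. Other distances also change that number. Within 50 kb 70 of 416 were up (16.8%) and 173 down (41.6%), against 18.0% and 37.4% within 10 kb. Within 5 kb 22 of 85 were up (25.9%) and 26 down (30.6%). The background of these shares was 7.65% up and 58.4% down. Rescaling reversed Trappc11 (0.022), CCDC79 (0.13), Dock3 (0.13), Abca16 (0.12) and Fbxl20 (0.14), with calls up for Dock3 and Fbxl20 only. Without the locus highest at 0 h, chosen after seeing the data, the summed signal of loci without LTRs rose 14.4-fold (8.09 with it). Of 928 alternatives for 46 named copies and genes, 910 kept direction and side of the threshold. For the 915 copies below the minimum no change was tested, and the cause of their low signal was not tested.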
